A study of Mus musculus with 10 samples.

Results

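The MHC class I antigen presentation genes were followed here as 10 genes chosen by name: the heavy chains *H2-K1* and *H2-D1*, the light chain *B2m*, the peptide transporter *Tap1* and *Tap2*, the loading factor *Tapbp*, the immunoproteasome subunits *Psmb8*, *Psmb9* and *Psmb10*, and the transactivator *Nlrc5*. All 10 were present among the 27024 named rows of the deposited table. Poly-adenylated RNA had been sequenced from bEnd.3, a brain endothelial line of wild-type mouse cells kept in serum-containing medium. For 16 h the cells received either 5 nM StcE, a bacterial mucinase that cleaves mucin-domain glycoproteins, or the same volume of saline, with 5 samples in each group. The saline samples carry the replicate numbers 1 to 5, and the StcE samples carry 1, 2, 3, 5 and 6. The labels name no inactive enzyme group, and they do not say whether the samples came from separate cultures, so that p-values measure the spread between these samples. All samples are of 1 cell line, which limits how far the values stand for brain endothelium.

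Class I molecules show peptides from inside the cell to CD8+ T cells, and endothelial cells carry them on their surface at rest. The proteasome cuts proteins into peptides, and in cells exposed to interferon the subunits encoded by *Psmb8*, *Psmb9* and *Psmb10* take the place of the constitutive catalytic subunits. The TAP transporter carries the peptides into the endoplasmic reticulum, where tapasin (*Tapbp*), calreticulin, ERp57 and other chaperones load them onto a heavy chain paired with β2-microglobulin (*B2m*). NLRC5 raises transcription of class I genes through a promoter module bound by RFX, CREB/ATF and NF-Y factors.

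Short strings from the CREB/ATF and NF-Y sites of that module were searched in the promoters, and no RFX site was searched. The promoters of the heavy and light chains are printed because *H2-K1* rose and *B2m* fell after StcE. *H2-D1* is the closest relative of *H2-K1* among these genes. Each window is the RefSeq sequence on GRCm38.p6, 250 bases before to 50 after the annotated start, given 5′ to 3′ on the strand of the gene. Capitals mark CCAAT (the NF-Y core), TGACG (part of a CREB/ATF site) and the core of the interferon-stimulated response element (GAAA, any 2 bases, GAAA), each searched on both strands. Another motif, TTCNNNGAA (the core of a gamma-activated site), was searched in the same way and was not in these windows.
H2-K1, chr17:34000298-34000597, minus strand: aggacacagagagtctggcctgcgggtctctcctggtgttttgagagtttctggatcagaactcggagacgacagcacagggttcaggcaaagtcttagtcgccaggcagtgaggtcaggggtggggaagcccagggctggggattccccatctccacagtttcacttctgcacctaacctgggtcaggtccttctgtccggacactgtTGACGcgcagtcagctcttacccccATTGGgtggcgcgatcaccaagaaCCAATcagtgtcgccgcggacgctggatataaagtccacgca
H2-D1, chr17:35262844-35263143, plus strand: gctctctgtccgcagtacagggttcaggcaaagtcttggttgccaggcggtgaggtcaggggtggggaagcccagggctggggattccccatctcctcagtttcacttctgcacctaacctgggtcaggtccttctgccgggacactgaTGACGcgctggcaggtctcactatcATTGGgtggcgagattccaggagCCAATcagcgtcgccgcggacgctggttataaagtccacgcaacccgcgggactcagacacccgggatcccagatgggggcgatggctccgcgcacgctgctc
B2m, chr2:122147437-122147736, plus strand: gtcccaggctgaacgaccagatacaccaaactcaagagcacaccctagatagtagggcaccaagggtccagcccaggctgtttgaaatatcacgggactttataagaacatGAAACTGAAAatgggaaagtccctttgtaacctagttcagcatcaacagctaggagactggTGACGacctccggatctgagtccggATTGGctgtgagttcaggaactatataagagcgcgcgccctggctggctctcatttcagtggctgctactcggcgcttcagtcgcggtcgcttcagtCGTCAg

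In all 3 genes TGACG was followed by ATTGG, the reverse complement of CCAAT, with 25 bases from the start of the former to the start of the latter. This spacing was noticed in these windows first and then counted: 19 of 32851 promoter windows (0.0578%) held it. Besides these genes, *H2-M3* was the 1 gene of the pathway lists below that had it, and *H2-K1* and *H2-D1* are related sequences, so that they are not separate instances. The response element core, as the exact string searched, was in the *B2m* window and in neither heavy chain window, against 3.44% of all windows. Inexact forms of the element were not searched, so that whether the heavy chain windows hold one was not tested. CCAAT was in 37.4% of all windows, TGACG in 20.8% and TTCNNNGAA in 8.3%. RefSeq windows were found for 8 of the 10 genes, and the *Psmb8* window held TTCNNNGAA. A match describes the letters in the window, not a bound site.

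The values are FPKM, the fragments on a gene per kilobase of its length, scaled by the authors for the depth of each sample. Between 21922594 and 29017310 fragments per saline sample and between 21864604 and 33147402 per StcE sample were recovered from the values. Markers placed all samples with endothelial cells. The 10 endothelial markers, such as *Pecam1* and *Cdh5*, summed to 1883 to 2034 FPKM with saline and 1785 to 1886 with StcE, and each had a mean of at least 1. Of 10 listed leukocyte and class II markers found, *Cd68*, a lysosomal protein that many cells make, was the 1 with a mean of at least 1 (19.3 to 21.6 FPKM with saline and 17.6 to 21.1 with StcE). *Ptprc*, the pan-leukocyte marker, was at 0 in every saline sample and at most 0.0020 FPKM with StcE. The whole list summed to 20.4 to 22.3 FPKM with saline and 18.7 to 21.6 with StcE. The pericyte and fibroblast list (8 found) summed to 1.40 to 1.62 and 1.35 to 1.70 FPKM, and the epithelial list (4 found) to 0.110 to 0.334 and 0.139 to 0.238. *Pdgfra*, of the pericyte and fibroblast list, was the 1 gene of these with a mean of at least 1. It had 1.07 to 1.33 FPKM with saline and 1.09 to 1.43 with StcE.

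The level of class I transcripts was dominated by the chains of the complex itself. With saline, *B2m* was highest at 285.7 ± 18.3 FPKM (SD, n = 5), followed by *H2-D1* at 151.3 ± 2.84, *Tapbp* at 18.2 ± 1.39, *H2-K1* at 14.9 ± 1.06 and *Psmb10* at 10.4 ± 0.662. *Tap1* (3.999 ± 0.312) and *Tap2* (2.78 ± 0.106) came next. *Psmb8* (0.918 ± 0.338), *Psmb9* (0.226 ± 0.0858) and *Nlrc5* (0.0327 ± 0.0142) were lowest. Neighbours in this order did not overlap between saline samples, except *Psmb8* and *Psmb9*. After StcE the order was the same but for *H2-K1*, which stood above *Tapbp* by its mean, with overlapping ranges. The interferon-inducible subunits *Psmb8* and *Psmb9* and the transactivator *Nlrc5* had means under 1 FPKM in both groups, with *Psmb8* above 1 in saline replicates 1 and 2, while the heavy and light chains were at 13.2 FPKM or more in every sample.

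**Figure D1:**
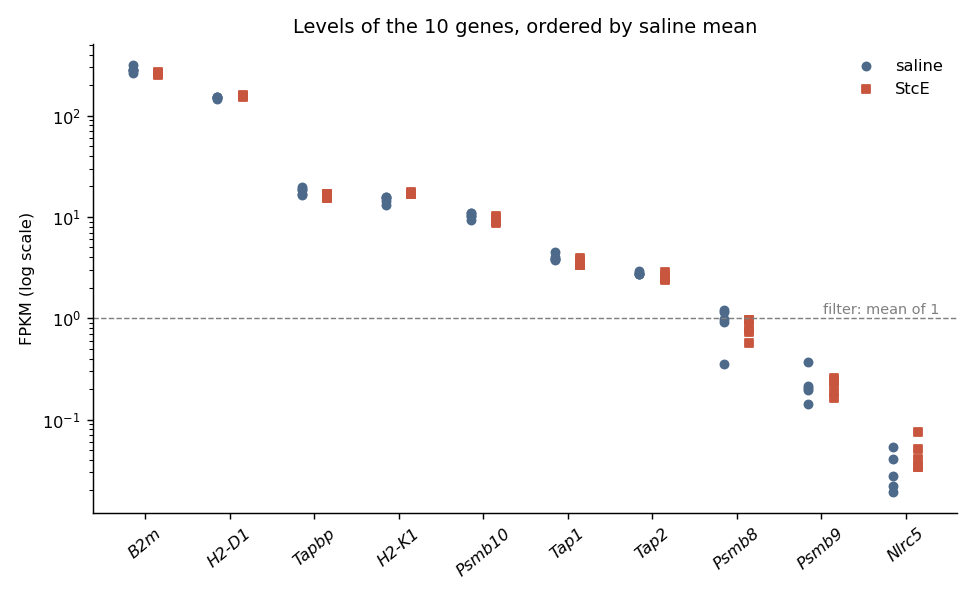
FPKM on a log axis of the 10 class I presentation genes in 5 saline (circles) and 5 StcE samples (squares), ordered by the saline mean, 1 point per sample. The dashed line is the mean FPKM of 1 that a gene needed for testing, which *Psmb8*, *Psmb9* and *Nlrc5* did not reach.

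Which of these genes changed with StcE was tested with limma on log2(FPKM + 1) over the 11062 rows with a mean FPKM of at least 1, among which were 7 of the 10 genes. In these data 11.9% of all tested rows had an adjusted p under 0.05, 5.52% higher and 6.41% lower after StcE. Of the 7 tested genes 2 were past that threshold: *H2-K1* rose and *B2m* fell. The other 5 were not past it. *H2-D1* had a higher mean after StcE, and *Tapbp*, *Tap1*, *Psmb10* and *Tap2* had lower means. The median log2 fold change of the 7 was -0.12, against -6.6e-04 over all tested rows, and 5 of the 7 were below 0, against 50.4% of all tested rows. In bulk RNA, fewer cells that make a transcript and less of it per cell cannot be told apart.

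*H2-K1* encodes the K heavy chain, which presents peptides to CD8+ T cells, and lies at chr17:33996017-34000347 (GRCm38, minus strand, GENCODE vM21, as for the genes that follow). It had 15.7, 15.4, 15.6, 14.4 and 13.2 FPKM in saline replicates 1 to 5. In StcE replicates 1, 2, 3, 5 and 6 it had 17.1, 16.7, 16.7, 16.8 and 17.8 FPKM. Every StcE sample lay above every saline sample, and saline replicates 4 and 5 were the lowest. The mean rose from 14.9 ± 1.06 to 17.01 ± 0.459 FPKM (SD, n = 5 each), or by 14.5% (log2 fold change 0.19, standard error [SE] 0.0434, adjusted p = 0.0187 by limma). Between 836 and 1537 fragments per sample lay behind these values. The exact two-sided permutation test gave p = 0.00794, the smallest that 5 samples against 5 allow. With no filter on low FPKM the adjusted p was 0.0565 (0.00939 to 0.133 over all alternatives).

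*H2-D1*, the other heavy chain (chr17:35262730-35267499), was the steadier of the pair. Its saline samples had 153.2, 153.1, 153.0, 146.7 and 150.3 FPKM, and its StcE samples 155.8, 157.6, 158.5, 154.3 and 157.1. Here too every StcE sample lay above every saline sample, but by a small margin. The means were 151.3 ± 2.84 and 156.7 ± 1.64 FPKM, a difference of 3.58%. At 0.05 on the log2 scale (SE 0.0197), the gene did not pass the limma test over all rows (adjusted p = 0.121), although the exact permutation p was 0.00794. Groups without overlap were found for 2 of the 7 tested genes, both higher with StcE, against 10.7% of all tested rows (4.85% higher and 5.8% lower).

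The heavy chains are members of a multigene family, so that their reads need care. The longest coding transcript of *H2-K1* had no stretch of at least 150 bases with at least 95% identity in another gene, whereas 13.3% of that of *H2-D1* had such a copy, in *H2-Q7*. Aligned to each other, the transcripts of *H2-K1* and *H2-D1* were 88.4% identical over 1515 bases. H2 alleles also differ between mouse strains. The reads were aligned to the C57BL/6J reference, and the labels do not give the strain of the line, so that the level of one heavy chain against another may depend on how well each allele aligned.

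*B2m* (chr2:122147686-122153083) encodes β2-microglobulin, without which class I heavy chains do not reach the cell surface in stable form. It had 285, 314, 285, 263 and 282 FPKM in the saline samples and 259, 269, 261, 255 and 258 in the StcE samples. The StcE samples were close together, and 4 of the 5 lay below every saline sample. Saline replicate 4 fell within the StcE range, and saline replicate 2 was the highest of all. The mean fell by 8.89%, from 285.7 ± 18.3 to 260.3 ± 5.36 FPKM, which on the log2 scale was -0.13 (SE 0.0392, adjusted p = 0.0499 by limma, exact permutation p = 0.0159). This call stood at the edge of the threshold and was lost in 9 of the 10 fits that each left out 1 sample (adjusted p from 0.0153 without saline replicate 4 to 0.102 without StcE replicate 5). Without saline replicate 2 the log2 fold change was -0.10 (limma adjusted p = 0.0639). That sample was also the highest of the 10 for 9 of the 14 tested interferon-induced genes described below, and the part of this in the *B2m* difference was not tested.

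*Tap1* and *Tap2* encode the paired chains of the peptide transporter and lie on chromosome 17 with *Psmb8* between them. *Tap1* (chr17:34187553-34197225) had 3.88, 3.82, 4.03, 3.73 and 4.52 FPKM with saline and 3.37, 3.96, 3.32, 3.63 and 3.34 with StcE. The libraries were directional, but whether counting used the strand is not given in the sources used here. StcE replicate 2 lay inside the saline range, and the other 4 StcE samples lay below it. On the log2 scale StcE minus saline was -0.14 (SE 0.0524, adjusted p = 0.0982 by limma), and without StcE replicate 2 it was -0.18 (adjusted p = 0.0423, against 0.0423 to 0.203 in the fits that left out 1 sample). *Tap2* (chr17:34203527-34216321) had 2.95, 2.71, 2.71, 2.83 and 2.71 FPKM with saline and 2.62, 2.45, 2.52, 2.84 and 2.37 with StcE. StcE replicate 5 was within the saline range and the others were below it. The corresponding log2 difference was -0.09 (SE 0.0423), with an adjusted p of 0.201 by limma. On the opposite strand, other genes overlapped 3.87% of the exon length of *Tap1* and 18.5% of that of *Tap2*.

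*Tapbp* (chr17:33915899-33929292) encodes tapasin, which bridges TAP and the empty class I molecule. Its values were 19.8, 18.5, 19.1, 16.9 and 16.6 FPKM with saline and 15.2, 16.8, 15.5, 16.7 and 16.8 with StcE. Saline replicates 1, 2 and 3 were above every StcE sample, and saline replicates 4 and 5 were close to the highest StcE samples. The means of 18.2 ± 1.39 and 16.2 ± 0.777 FPKM were -0.15 apart on the log2 scale (SE 0.0497, adjusted p = 0.0664 by limma). The adjusted p was 0.0346 without saline replicate 5, against a range of 0.0300 to 0.174 over all alternatives. Exons of a gene on the opposite strand overlapped 24.9% of the exon length of *Tapbp*, and 27.0% of its longest coding transcript had a near-identical copy in 5 other genes.

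Of the immunoproteasome subunits, *Psmb10* (chr8:105935735-105938444), which encodes the MECL-1 subunit, was the 1 expressed well enough to test. It had 10.3, 10.9, 9.36, 10.3 and 11.1 FPKM with saline and 9.52, 9.04, 9.61, 10.3 and 8.76 with StcE. The groups overlapped through saline replicate 3, the lowest of its group, and StcE replicate 5, the highest of its group. The means were 10.4 ± 0.662 and 9.45 ± 0.595 FPKM, and -0.12 apart on the log2 scale (SE 0.0483, adjusted p = 0.127 by limma).

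*Psmb8*, the LMP7 subunit (chr17:34197721-34201454), had 1.15, 1.20, 0.974, 0.351 and 0.917 FPKM with saline and 0.575, 0.952, 0.790, 0.730 and 0.971 with StcE. Between 22 and 96 fragments per sample lay behind these values. Saline replicate 4 was the lowest of all 10 samples, and the groups overlapped (exact two-sided permutation p = 0.619). Exons of *Gm20496* on the opposite strand overlapped 14.7% of the exon length of *Psmb8*. *Psmb9*, the LMP2 subunit (chr17:34181987-34187764), overlapped *Tap1*, on the opposite strand, over 5.79% of its exon length. It had 0.216, 0.205, 0.195, 0.143 and 0.371 FPKM with saline and 0.256, 0.188, 0.229, 0.164 and 0.238 with StcE, from 12 to 33 fragments per sample (exact permutation p = 0.873). No difference was detectable for either subunit at this depth.

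*Nlrc5* (chr8:94434356-94527272), the class I transactivator, was barely expressed. It had 0.0194, 0.0279, 0.0221, 0.0411 and 0.0533 FPKM with saline and 0.0751, 0.0341, 0.0340, 0.0403 and 0.0513 with StcE. These values came from 5 to 11 fragments per saline sample and 8 to 15 per StcE sample, so that a difference was not detectable at this depth (exact two-sided permutation p = 0.206).

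**Figure D2:**
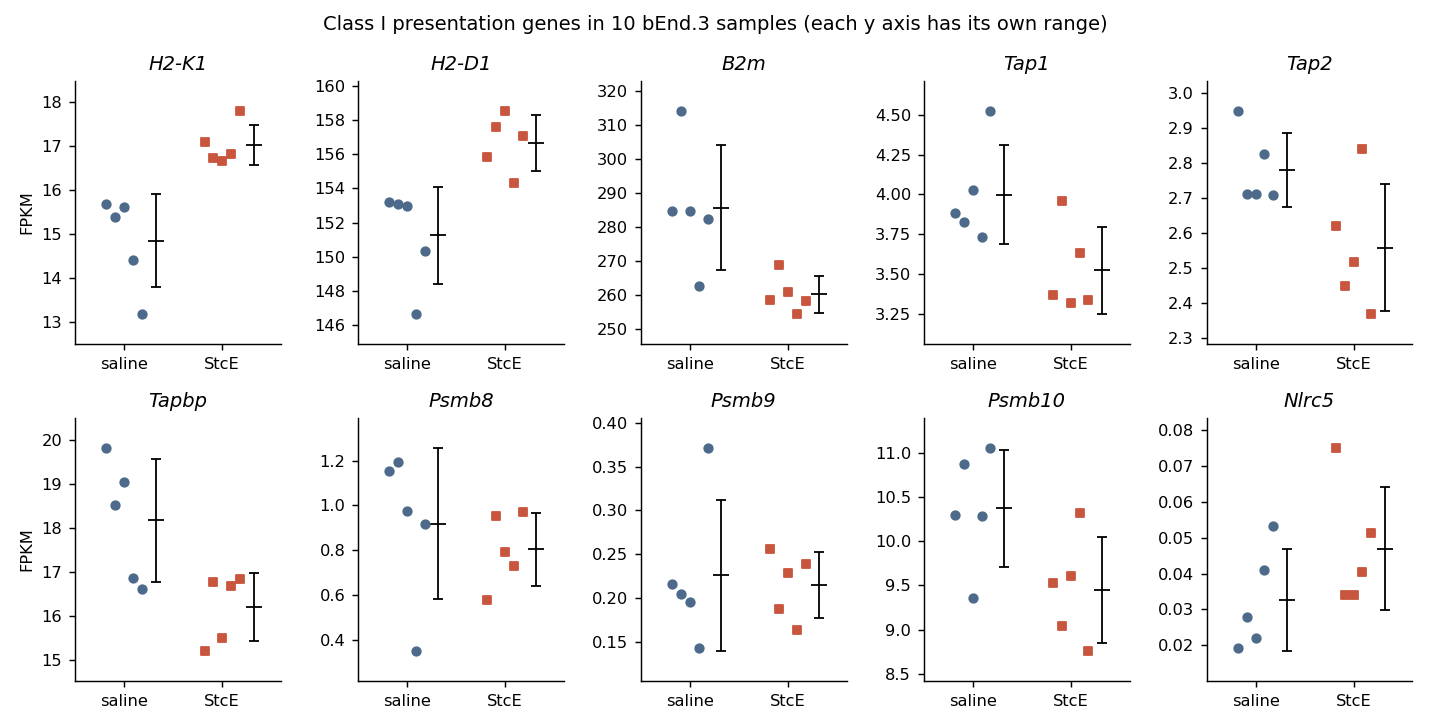
FPKM of each of the 10 genes by sample (saline, circles; StcE, squares), with the mean and SD of each group of 5 at the right of the points and a separate y range for each gene, not starting at 0. The StcE points of *H2-K1* and *H2-D1* are all above the saline points, and 4 of the 5 StcE points of *B2m*, *Tap1* and *Tap2* are below all saline points.

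The balance between the parts of the complex was compared with ratios of FPKM within a sample, which do not depend on the scaling between samples. There were 6 such ratios, tested by exact two-sided permutation with Benjamini-Hochberg adjustment over the 6. The ratio of heavy chains to light chain, *H2-K1* plus *H2-D1* over *B2m*, was 0.593, 0.537, 0.592, 0.613 and 0.579 in the saline samples and 0.669, 0.648, 0.671, 0.672 and 0.677 in the StcE samples. The groups did not overlap, and the StcE samples were nearly level. The mean ratio rose from 0.583 ± 0.0285 to 0.667 ± 0.0111 (SD, n = 5 each), a log2 difference of 0.20 (SE 0.0340, exact permutation p = 0.00794, adjusted p = 0.0238). It was higher than the saline median in 5 of 5 StcE samples.

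The ratio of *H2-K1* to *H2-D1* was 0.102, 0.1004, 0.102, 0.0983 and 0.0877 with saline and 0.110, 0.106, 0.105, 0.109 and 0.113 with StcE. These groups did not overlap either, and saline replicate 5 was the lowest. The mean rose from 0.0982 ± 0.00605 to 0.109 ± 0.00320, a log2 difference of 0.15 (SE 0.0454, exact permutation p = 0.00794, adjusted p = 0.0238), so that *H2-K1* changed more than *H2-D1* did. Both ratios share *H2-K1* and *H2-D1* and are not independent of each other or of the single-gene tests. *Tap1* to *Tap2* was 1.44 ± 0.145 with saline and 1.38 ± 0.140 with StcE, with overlapping groups (log2 difference -0.06, SE 0.0892, exact permutation p = 0.468, adjusted p = 0.702).

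Each immunoproteasome subunit was also set against the constitutive subunit whose place it takes. *Psmb10* stood at 32 ± 2.26% of *Psmb7* with saline and at 27.9 ± 1.70% with StcE. All 5 StcE samples (26.8% to 30.9%) were below the saline median, while the ranges overlapped at saline replicate 3 (28.2%). The log2 difference of -0.20 (SE 0.0608) had an exact permutation p of 0.0159 and an adjusted p of 0.0317, which was 0.0635 in 8 of the 10 tests that left out 1 sample. *Psmb8* was at 1.19 ± 0.443% of *Psmb5* with saline and 1.09 ± 0.293% with StcE (exact permutation p = 0.873, adjusted p = 0.881). *Psmb9* was at 0.348 ± 0.134% of *Psmb6* with saline and 0.326 ± 0.0570% with StcE (exact permutation p = 0.881, adjusted p = 0.881). The constitutive subunits were thus far more abundant than *Psmb8* and *Psmb9* in every sample of either group.

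**Figure D3:**
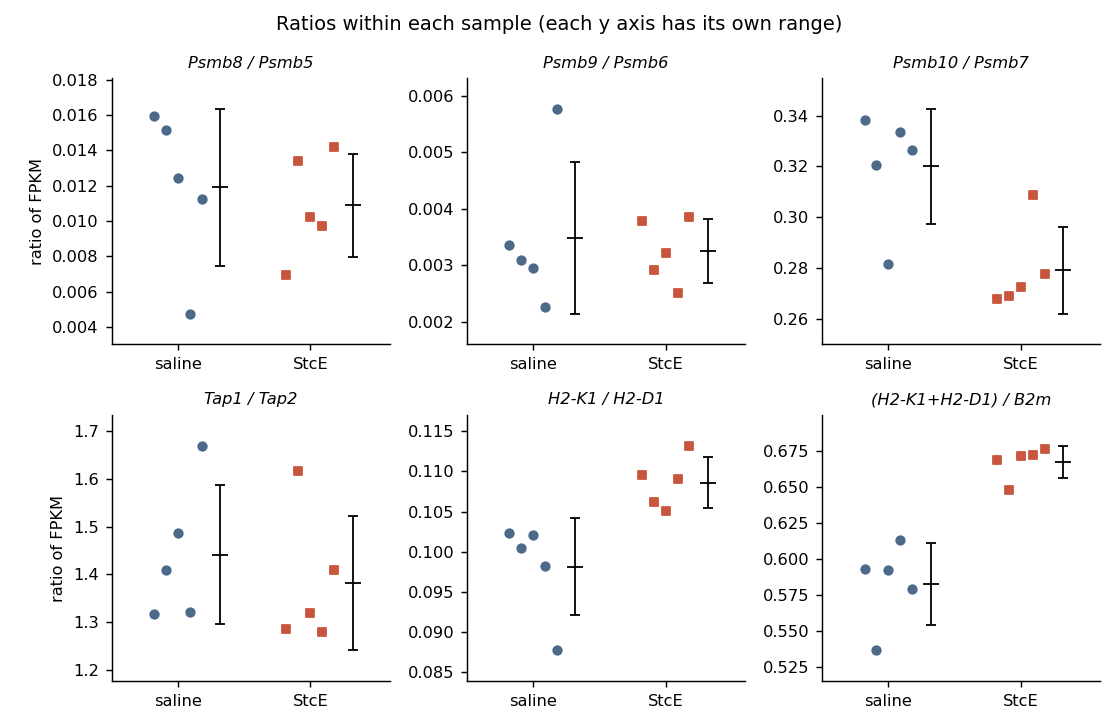
Ratios of FPKM within each sample (saline, circles; StcE, squares) for 3 immunoproteasome subunits over their constitutive counterparts, *Tap1* over *Tap2*, *H2-K1* over *H2-D1*, and both heavy chains over *B2m*, with the mean and SD of each group of 5 and y axes that do not start at 0. The groups are apart for the *H2-K1* to *H2-D1* ratio and the heavy chain to *B2m* ratio and overlap in the other 4 panels.

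The rest of the pathway was described with 7 lists of other genes by role, of which 83 genes were tested. Of these 10 were past the threshold, 1 higher and 9 lower. As shares of the 83 genes these were 1.2% and 10.8%, against 5.52% higher and 6.41% lower over all tested rows. Among other class I and class I-like heavy chains, 14 were tested, with 1 higher, 1 lower and a median log2 fold change of 0.02. Each of these counts was 7.14% of the 14. Neither of those that passed is a classical peptide-presenting chain. *Procr*, the endothelial protein C receptor, rose from 783.6 ± 15.8 to 906.4 ± 36.5 FPKM (log2 fold change 0.21, SE 0.0299, limma adjusted p = 0.00124) with no overlap between groups. *H60b*, a ligand of the NK cell receptor NKG2D, fell from 8.31 ± 0.508 to 6.79 ± 0.785 FPKM (log2 fold change -0.26, SE 0.0638, limma adjusted p = 0.0234), with StcE replicate 5 inside the saline range. *H60b* was no longer past the threshold in 4 of the 10 fits with 1 sample left out, those without saline replicate 3 or 4 or StcE replicate 1 or 3 (adjusted p 0.0544 to 0.0603).

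The class Ib heavy chains did not pass the test. *H2-T23*, which encodes Qa-1, had means of 3.93 ± 0.459 and 4.53 ± 0.474 FPKM (limma adjusted p = 0.161), and *H2-M3*, which presents formylated peptides, had 2.39 ± 0.347 and 2.77 ± 0.415 (adjusted p = 0.284). *H2-T22* had 6.53 ± 0.394 and 6.64 ± 0.653 FPKM and *H2-Q4* 4.599 ± 0.853 and 4.41 ± 0.422 (limma adjusted p = 0.877 and 0.809). These levels were all below that of *H2-K1* in every sample.

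Of 11 tested chaperones and trimming enzymes of the endoplasmic reticulum, 1 was lower and 0 were higher past the limma threshold. Their median log2 fold change was -0.04. As a share 9.09% were lower, against 6.41% of all tested rows. An unadjusted limma p under 0.05 was found for 3 of the 11, against 3071 of the 11062 tested rows. *Calr*, calreticulin of the loading complex, fell from 287.7 ± 6.57 to 272.1 ± 4.49 FPKM (log2 fold change -0.08, SE 0.0221, limma adjusted p = 0.0379) and its groups did not overlap. The *Calr* call was lost in 8 of the 10 fits that left out 1 sample (adjusted p 0.0337 to 0.0897) and kept in those without saline replicate 3 or StcE replicate 2. *Pdia3* (ERp57) had 282.6 ± 3.91 and 274.1 ± 3.74 FPKM (adjusted p = 0.165), and *Canx* (calnexin) 151.4 ± 2.14 and 146.9 ± 3.905 (adjusted p = 0.241). These partners of *Tapbp* were expressed at the level of *B2m* and *H2-D1* rather than that of *Tapbp* itself.

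None of the 9 tested proteasome partners and of the 6 cytosolic peptidases was past the limma threshold. Their median log2 fold changes were -0.02 and -0.03. An unadjusted limma p under 0.05 was found for 2 and 4 of them, against 3071 of the 11062 tested rows. With voom on recovered fragments the counts past the threshold were 0 and 1 (*Thop1*, higher with StcE, named after its value was seen). *Psmb5*, *Psmb6* and *Psmb7*, the constitutive catalytic subunits, had 77.0 ± 3.84, 64.9 ± 1.27 and 32.5 ± 1.69 FPKM with saline and 75.0 ± 5.51, 66.0 ± 3.54 and 33.9 ± 1.604 with StcE. *Psme1* and *Psme2*, which form the PA28 activator, had 20.4 ± 0.315 and 11.5 ± 2.41 FPKM with saline and 19.1 ± 1.33 and 10.2 ± 1.72 with StcE.

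Among the 18 tested transcription factors and co-factors of class I genes, 2 were lower and 0 higher. Their median log2 fold change was -0.04. As a share 11.1% were lower, against 6.41% of all tested rows. *Nfkb1*, the p50 subunit of NF-κB, fell from 9.41 ± 0.319 to 8.48 ± 0.329 FPKM (log2 fold change -0.14, SE 0.0320, limma adjusted p = 0.0196). *Irf2* fell from 4.20 ± 0.1005 to 3.80 ± 0.146 FPKM (log2 fold change -0.12, SE 0.0318, limma adjusted p = 0.0361). Neither overlapped between groups. With 1 sample left out, *Irf2* lost its call in 8 of 10 fits (adjusted p 0.0359 to 0.0766, kept without saline replicate 3 or StcE replicate 2) and *Nfkb1* in 1 (0.0512 without StcE replicate 3). *Irf1* (3.56 ± 0.208 and 3.21 ± 0.148 FPKM) and *Rfx5*, a subunit of the RFX complex (2.38 ± 0.2998 and 2.26 ± 0.173), were not past the threshold (limma adjusted p = 0.0965 and 0.649).

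Interferon-γ raises class I genes. Of 11 tested genes of interferon reception and signalling, 2 were lower and 0 higher, with a median log2 fold change of -0.07. The share lower was 18.2%, against 6.41% of all tested rows. *Ifngr1*, the ligand-binding chain of the interferon-γ receptor, fell from 17.8 ± 0.713 to 15.1 ± 0.840 FPKM (log2 fold change -0.22, SE 0.0393, limma adjusted p = 0.00396). *Jak1*, the kinase bound to it, fell from 33.5 ± 0.362 to 30.5 ± 0.901 FPKM (log2 fold change -0.13, SE 0.0236, limma adjusted p = 0.00417). The groups did not overlap in either gene.

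Of 14 tested interferon-induced reference genes, 3 were lower and 0 higher past the threshold, 13 had a log2 fold change below 0, and the median was -0.19. As shares these were 21.4% lower and 92.9% below 0, against 6.41% and 50.4% of all tested rows. *Gbp3* fell from 3.21 ± 0.275 to 2.42 ± 0.154 FPKM (log2 fold change -0.30, SE 0.0514, limma adjusted p = 0.00374), *Gbp7* from 1.92 ± 0.148 to 1.41 ± 0.160 (log2 fold change -0.28, SE 0.0559, adjusted p = 0.00857) and *Irgm1* from 10.97 ± 1.06 to 9.33 ± 0.651 (log2 fold change -0.21, SE 0.0604, adjusted p = 0.0435). These encode GTPases of cell-autonomous immunity. Saline replicate 2 was the highest sample for 9 of the 14, as it was for *B2m* but not for *H2-K1* or *H2-D1*. Without it 2 of the 14 were lower past the threshold (*Gbp3* and *Gbp7*), 13 were still below 0 and the median was -0.14. With voom on recovered fragments 6 were lower, the others being *Gbp2*, *Ifit1* and *Rsad2*. *Irgm1* was past the threshold in 2 of the 10 fits that left out 1 sample, those without saline replicate 4 or StcE replicate 2 (adjusted p 0.0224 to 0.0986 over the 10).

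**Figure D4:**
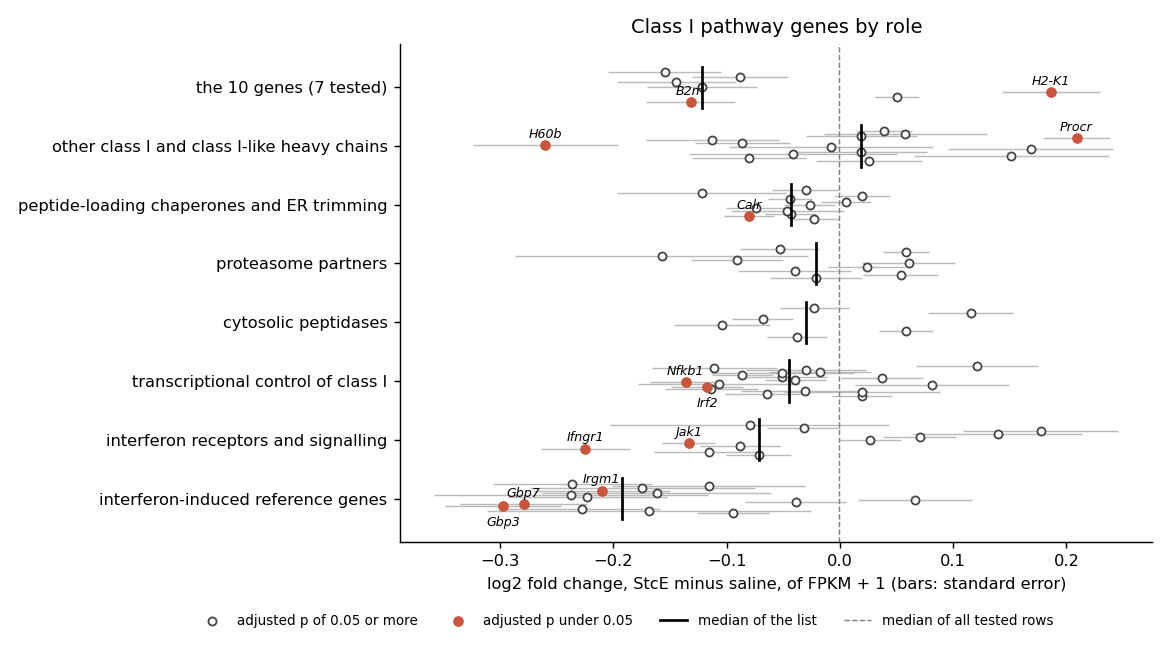
Log2 fold change (StcE minus saline, on log2(FPKM + 1)) of the tested class I presentation genes and 7 lists of other pathway genes, 1 point per gene with its standard error. Filled points are past the limma threshold, short vertical lines are list medians and the dashed line is the median over all tested rows. *H2-K1* and *Procr* are the filled points above 0, and the other 10 are below 0.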

How the data were processed

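FPKM values were deposited by the authors, with 1 column per sample and 27024 rows with a gene name (22874 further rows were empty, and 12 names stood on more than 1 row). Trimmed read pairs from directional poly-A libraries had been aligned to GRCm38. The submitters' processing notes name HISAT2 2.0.5, featureCounts 1.5.0-p3 and DESeq2 1.32.0. The annotation release is not given in the sources used here. With exon lengths from GENCODE vM21, 96.6% of values above 0 were whole fragments within 0.05. For *H2-K1*, *Tapbp* and *Psmb8* the annotated length gave none, and the smallest length that gave whole fragments in all samples was used for fragment counts. Intervals from fragments were not computed, and the counts cover counting error only.

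Genes with mean FPKM of 1 or more were tested with limma 3.58.1 in R 4.3.3 on log2(FPKM + 1), a scale that understates changes of low genes, using trended eBayes, a model of treatment alone and p-values adjusted by Benjamini-Hochberg over all tested rows, because FPKM are not counts and DESeq2 could not be used on them. The procedure was also run on simulated data with independent normal noise for each gene. Sample effects shared between genes were not simulated, so that the run does not show how the procedure behaves with them. Single genes and the 6 ratios were also tested by exact permutation over 252 arrangements (scipy 1.17.1). Copies in other transcripts were searched with BLAST 2.17.0. Samples of 1 group were further apart than fragment sampling allows (chi-square over its degrees of freedom 3.21 to 9.16).

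The 10 genes, the pathway lists and the marker lists were chosen with earlier results of these data known. All 10 genes are named, with every gene of a list past the threshold where there were 5 or fewer, and a fixed set of further pathway genes, of which 1 is not reported here. *Cd68*, *Ptprc*, *Pdgfra*, *Pecam1* and *Cdh5* were chosen from the marker lists after their values were seen. Of the pathway list genes, 105 of 118 were found by name. The alternatives were no filter or one of 0.1 on mean FPKM, a pseudocount of 0.1, scaling by upper quartile or total, untrended or robust eBayes, sample weights, a replicate block and leaving out each sample. The 8 samples without the block and voom on recovered fragments were chosen after seeing the data.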

Additional observations from a re-analysis of the deposited data

Results flagged for a closer look

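Among 32 groups of 5 values examined for the 10 genes and the 6 ratios, 3 had a sample that stood apart from the others, where chance gives about 1.6. The *Psmb10* to *Psmb7* ratio was 0.309 in StcE replicate 5, against 0.268 to 0.277 in the other StcE samples. The *H2-K1* to *H2-D1* ratio was 0.0877 in saline replicate 5 (others 0.0983 to 0.102), and without that sample the log2 difference was 0.11 instead of 0.15. The ratio of *H2-K1* plus *H2-D1* to *B2m* was 0.648 in StcE replicate 2, against 0.669 to 0.677 in the other StcE samples. None of these samples had a label that set it apart.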

How the results depend on the processing

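The direction of each of the 7 tested genes was kept in all 147 refits. *H2-K1* was past the threshold in 18 of 21 alternatives and in all 10 fits that left out 1 sample (log2 fold change 0.15 to 0.21, limma adjusted p 0.0155 to 0.0439), and *B2m* in 8 of 21. *Tapbp* reached it in 3 and *Tap1* in 1. The number of the 10 genes past the threshold was 2. It was 0 without a filter, 1 with a mean FPKM minimum of 0.1, with upper quartile scaling and with eBayes without trend (in each case *H2-K1*), and 1 to 2 in the fits that left out 1 sample. It was 3, with *Tapbp*, under sample weights and under voom, which also gave 1476 and 1496 tested genes and 14 pathway list genes each. A replicate block, possible in 8 samples, gave 1 (*B2m*), and so did those 8 samples without it (*H2-K1* adjusted p 0.133 and 0.0810). The labels do not say whether equal numbers mark pairs. The correlation of same-numbered deviations was -0.0966 to 0.0538. Differently numbered samples were not compared in this way, so that these values cannot decide whether samples were paired. All tested genes past the threshold numbered 1320 as reported, 801 without a filter, 349 with the replicate block and 793 to 1257 with 1 sample left out, the lowest without StcE replicate 3 and 837 without saline replicate 1. Pathway list genes past it numbered 10, with 6 without a filter, 4 with the replicate block and 6 to 12 with 1 sample left out (6 without StcE replicate 1 and without StcE replicate 3).

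With 1 sample left out, the log2 difference of the heavy chain to *B2m* ratio was 0.17 to 0.22 and that of *H2-K1* to *H2-D1* 0.11 to 0.16. Both ratios were past the threshold each time, but this was fixed in advance. Groups that do not overlap stay apart when a sample is left out, which sets the exact p. The log2 difference of *Psmb10* to *Psmb7* was -0.24 to -0.18. The differences of *Psmb8* to *Psmb5* (-0.36 to 0.092, with 0.075, 0.057 and 0.092 without saline replicates 1 and 2 and StcE replicate 1) and *Psmb9* to *Psmb6* (-0.18 to 0.16, with 0.16 and 0.046 without saline replicate 5 and StcE replicate 5) changed sign. The cause of these changes was not tested. Under 34 fragments of *Psmb9* and 16 of *Nlrc5* per sample, depth limits what can be seen for these genes.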

Other observations

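Class I genes below the mean FPKM of 1 were not tested and are given by their range over samples. *H2-Q7* was at 0.309 to 0.599 FPKM with saline and 0.399 to 0.577 with StcE, and *H2-K2* at 0.125 to 0.489 and 0.265 to 0.517. The CD1-like gene *Cd1d2* was at 0.492 to 0.771 and 0.278 to 0.663 FPKM. *H2-Q10*, a class I gene known from liver, was listed at 0 in every saline sample and was at most 0.0131 FPKM with StcE. These genes were picked from the list after their values were seen.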
